A study of Mus musculus with 6 samples.

Results

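Aminoacyl-tRNA synthetases are the enzymes that join each amino acid to its transfer RNA. The 35 members described here were listed by name, with earlier results of these data known. They are 19 genes of the cytosolic enzymes and 16 of the mitochondrial ones, whose symbols end in 2. All 35 were found among the 25751 genes of the deposited count table. The libraries came from primary wild-type (WT) mouse cells labelled as myeloid cells at 24 h, 3 of them control and 3 given trimethylamine N-oxide (TMAO), a metabolite made in the liver from trimethylamine released by gut bacteria. No dose is given in the sources used here. The deposited sample names call the treated cells T-BMDM and the controls only Control, and whether both were derived in the same way is not stated, so the source of the cells and the treatment cannot be told apart. Whether the 3 libraries of each group are separate cultures or animals is not stated, and p-values here reflect only library-to-library spread, which may be technical.

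Cells make proteins in the cytosol from nuclear messages and in mitochondria from the few messages of the mitochondrial genome, and each site needs its own charged transfer RNAs. Most amino acids therefore have a pair of nuclear genes, one for each site. Gars and Kars, for glycine and lysine, supply both sites from one gene. Mitochondria have no glutaminyl-tRNA synthetase of their own: Ears2 loads glutamate and an amidotransferase turns it into glutamine. Several cytosolic enzymes sit in a multisynthetase complex, here Dars, Eprs, Iars, Kars, Lars, Qars and Rars, and the other cytosolic ones are free of it. When amino acids are short, uncharged transfer RNA activates the kinase GCN2 (gene Eif2ak4), which slows translation and lets ATF4 protein accumulate. ATF4 is a transcription factor known to drive many cytosolic synthetase genes in such conditions through a C/EBP-ATF response element (CARE).

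Library totals ran from 37759007 to 41735109 counts. The myeloid genes Lyz2, Csf1r and Itgam were expressed in every library. Neutrophil, monocyte and cell-division genes moved with the treatment: 13 of 15 neutrophil markers, 9 of 10 monocyte markers and 10 of 10 proliferation genes were called higher, against 33.0% of all genes tested (32.7% were called lower; the rule for a call is given with the results). Their summed levels in CPM (counts scaled per library) went from 474 to 515 in controls to 4528 to 5785 with TMAO for neutrophil markers, from 426 to 529 to 1422 to 1479 for monocyte markers, and from 46.0 to 48.9 to 324 to 373 for proliferation genes. Of 10 macrophage markers, 1 was called higher (Cd14) and 5 lower. Their sums of 43460 to 48270 CPM in controls and 41580 to 50410 with TMAO were mostly Lyz2, which was not called, while Mertk, Fcgr1 and Adgre1 fell (log2 fold changes -3.31, -2.07 and -1.70). Cd68 and Csf1r were the others called lower, Csf1r in only 13 of 19 alternatives (log2 fold change -0.28, edgeR adjusted p = 0.0303, range over the alternatives 0.000811 to 0.984). Of 7 B cell markers tested (of 10), 6 were called higher, and the sums rose without overlap from 9.16 to 11.4 CPM in controls to 33.1 to 35.6 with TMAO. Pax5, Ebf1 and Vpreb3 had no counts in controls. With TMAO Pax5 had 12, 16 and 16 counts, Ebf1 10, 8 and 8, and Vpreb3 0, 2 and 0. Vpreb1 had 4, 1 and 2 counts in controls and 0, 1 and 2 with TMAO. In the T and NK list 2 of 10 were tested: Cd4 was called lower (mean 11.6 to 2.53 CPM) and Nkg7 higher (0 counts in controls, 1.96 CPM with TMAO). Cd4 carried the change of that list's sum, from 10.9 to 13.1 CPM in controls to 4.04 to 5.89 with TMAO. Cd3d, Cd3g, Ncr1 and Trac had no counts in controls. With TMAO, Trac had 5, 8 and 14 counts, and Cd3d, Cd3g and Ncr1 had counts only in library 3 (4, 2 and 2). Cd3e and Gzma had 2 counts each in control library 3 and none with TMAO. Klrb1c went from 8, 17 and 19 counts to 5, 4 and 4, and Cd8a from 0, 2 and 0 to 2, 4 and 0. Of 9 dendritic cell markers tested 6 were called higher and 1 lower. Their sum was 58.8 to 60.9 CPM in controls and 32.6 to 37.5 with TMAO. It followed the gene called lower, Itgax (mean 56.9 to 23.1 CPM), against the direction of most of the list. Cd209a and Siglech had no counts in controls. With TMAO Siglech had 40, 20 and 29 counts and Cd209a 8, 0 and 0. Of 8 stromal and endothelial markers tested 3 were called higher, a share near that of all genes, with sums of 11.6 to 14.1 and 27.5 to 35.3 CPM. The part of these cell types in the synthetase results was not tested, and in bulk RNA fewer cells of a type and less RNA per cell cannot be told apart.

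Promoter sequences are shown first because the members that rose most and the members that hold a CARE overlap in part. The windows came from RefSeq (build GRCm38.p6) and reached from 250 bases before to 50 after the annotated start. Those of 12 cytosolic and 14 mitochondrial members were searched. The remaining members were not searched, so the member counts below hold only for those that were. The member search also passed over a chromosome by a filter that the background shares below did not use. The motif searched was TGATGNAA on both strands (N is any base). It was found in 5 of the 12 cytosolic windows (Aars, Gars, Iars, Tars and Yars) and in 0 of the 14 mitochondrial ones, while 4.51% of the 27025 genes with such a window held it. The stretches below run from 150 bases before to 30 from the start on, 5′ to 3′ on the strand of the gene, with each match in capitals.
Aars, chr8:111033692-111033871, plus strand: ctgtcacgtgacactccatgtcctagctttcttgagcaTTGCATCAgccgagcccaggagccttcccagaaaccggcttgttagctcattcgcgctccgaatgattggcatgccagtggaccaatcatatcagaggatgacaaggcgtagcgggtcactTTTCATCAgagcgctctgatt
Gars, chr6:55037851-55038030, plus strand: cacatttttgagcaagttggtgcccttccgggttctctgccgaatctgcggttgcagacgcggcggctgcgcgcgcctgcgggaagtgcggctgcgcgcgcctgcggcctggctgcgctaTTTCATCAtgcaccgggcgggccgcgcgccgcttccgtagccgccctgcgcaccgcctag
Iars, chr13:49681980-49682159, plus strand: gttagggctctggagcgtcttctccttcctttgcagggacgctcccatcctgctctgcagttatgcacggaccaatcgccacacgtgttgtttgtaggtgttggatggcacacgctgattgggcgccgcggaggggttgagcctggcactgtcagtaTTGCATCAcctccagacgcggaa
Tars, chr15:11399629-11399808, minus strand: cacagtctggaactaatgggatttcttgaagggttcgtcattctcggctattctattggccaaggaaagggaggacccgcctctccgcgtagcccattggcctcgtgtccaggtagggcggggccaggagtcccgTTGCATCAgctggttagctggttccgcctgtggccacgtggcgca
Yars, chr4:129189753-129189932, plus strand: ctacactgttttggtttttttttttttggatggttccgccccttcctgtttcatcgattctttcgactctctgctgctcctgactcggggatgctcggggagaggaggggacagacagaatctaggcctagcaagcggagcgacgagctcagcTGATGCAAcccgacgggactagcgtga

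The letters TTGCATCA stood in Aars, Iars and Tars, 112 bases before, 7 after and 15 before the start, and Yars held the same word on the other strand, TGATGCAA, 3 bases after it. TTTCATCA stood in Gars, 30 bases before the start, and a further time in Aars, 9 bases after it. All 5 genes with the motif were called higher with TMAO (the test is given with the values), at a median log2 fold change of 1.28. Of the 7 cytosolic members whose window lacked it, 4 were called higher and 1 lower, at a median of 0.41. Sars was among those 7 and more than doubled, so the motif in this window was not found in every member that rose. A further 7 cytosolic members had no window searched. Of these, 6 were called higher and none lower, at a median of 0.54, with Cars highest at 1.52. Whether they hold the motif is not known here. Over all genes tested that had a window, 2.79% held the motif. Of those 286 genes 36.7% were called higher, and of the 9963 without it 33.9%. A match describes letters and is not a shown binding site. The interferon-stimulated response element (ISRE) was found for Qars alone among the 26 members searched, against 3.99% of genes. TTCNNNGAA was in the windows of Aars, Kars and Nars2, against 9.55%.

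The study addressed the effect of TMAO on myeloid cells. CPM were computed on TMM-scaled library sizes, and a gene is called where the edgeR quasi-likelihood p, adjusted by Benjamini-Hochberg over every gene tested, is under 0.05. All 35 members passed the filter on low counts and were tested. Of the 19 cytosolic members, 15 were called higher, 1 lower and 3 neither way, at a median log2 fold change of 0.55. Of the 16 mitochondrial members, 6 were called higher, 2 lower and 8 neither way, at a median of 0.14. That median was 0.09 with Lars2 left out, 0.074 without TMAO library 2 and 0.48 with the length trend removed, where 8 were called higher. Over all 14626 genes tested, 33.0% were called higher and 32.7% lower (65.7% in either direction), at a median of 0.01. The cytosolic share called higher was thus 78.9% against that background of 33.0%, and the mitochondrial share was 37.5%, close to it. A change of at least 2-fold upward was called in 6 cytosolic and 2 mitochondrial members, against 15.7% of all genes. The CPM of the groups did not overlap, with TMAO higher, in 15 cytosolic and 7 mitochondrial members (35.6% of all genes), and with TMAO lower in 1 and 4 (35.4% of all genes).

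**Figure D1:**
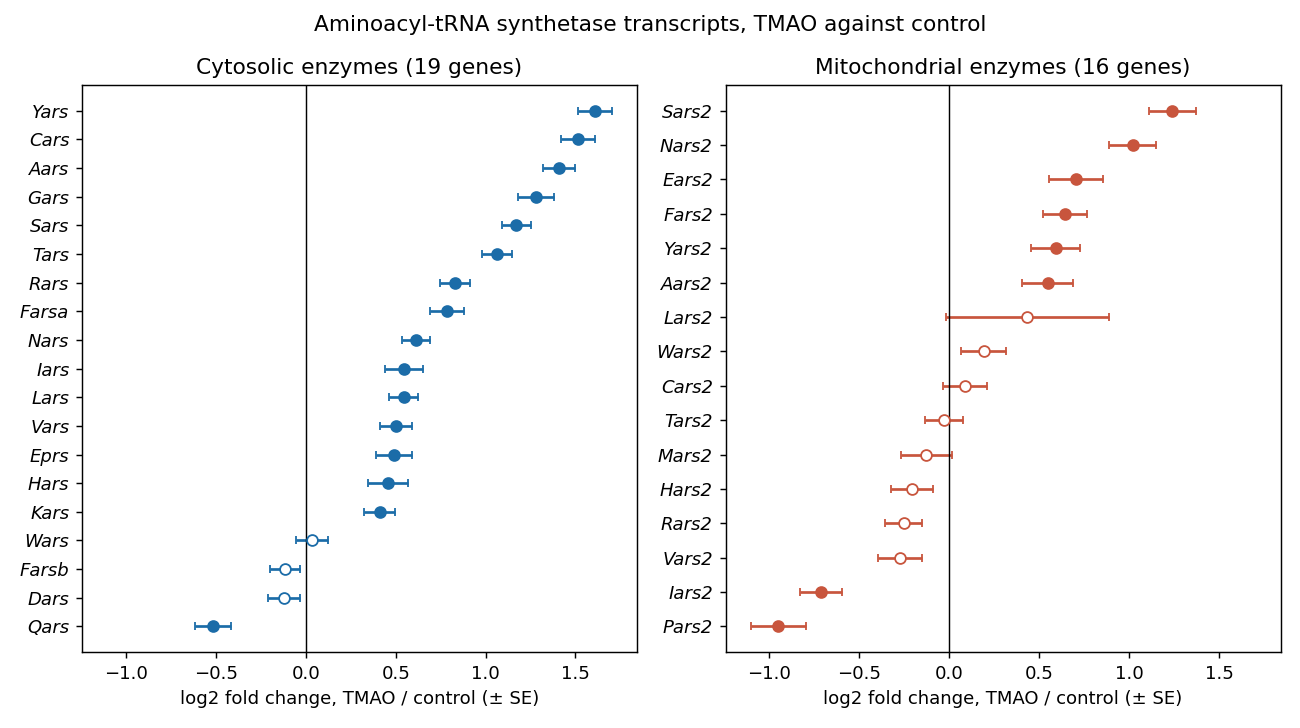
Log2 fold change of TMAO against control for each cytosolic (left) and mitochondrial (right) synthetase gene, with its SE from edgeR; filled points were called at an adjusted p under 0.05 and open points were not. Cytosolic genes run from -0.52 (Qars) to 1.61 (Yars) and mitochondrial ones from -0.95 (Pars2) to 1.24 (Sars2).

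Yars, the tyrosine enzyme (ENSMUSG00000028811), rose most among the cytosolic members. It stood at 21.9, 23.6 and 22.6 CPM in control libraries 1 to 3 and at 65.8, 74.7 and 67.1 CPM in TMAO libraries 1 to 3. The lowest TMAO library was far above the highest control, and the fold change was 3.05 (log2 1.61, SE 0.09, edgeR adjusted p = 3.01e-07). Cars, which charges cysteine (ENSMUSG00000010755), had 29.6, 31.4 and 27.3 CPM in controls and 78.9, 85.9 and 88.0 with TMAO, a fold of 2.86 (log2 1.52, SE 0.09, edgeR adjusted p = 4.71e-07). Aars, the alanine enzyme (ENSMUSG00000031960), had 97.3 to 106 CPM in controls and 278, 248 and 281 with TMAO (log2 fold change 1.41, SE 0.09, edgeR adjusted p = 4.65e-07). Within each group the Aars values lay within a narrow band, and the bands stood well apart. Gars, the glycine enzyme of cytosol and mitochondria (ENSMUSG00000029777), went from 65.4, 69.7 and 57.1 CPM to 145, 154 and 168 (log2 fold change 1.28, SE 0.10, edgeR adjusted p = 2.4e-06). Sars, for serine (ENSMUSG00000068739), went from 112.5 to 119.5 CPM in controls to a mean of 260.4 ± 12.7 CPM with TMAO (SD, n = 3), its highest library at 274.5 (log2 fold change 1.17, SE 0.08, edgeR adjusted p = 9.53e-07). Sars also charges the transfer RNA on which selenocysteine is built. Tars, for threonine, had 59.8, 55.2 and 57.0 CPM in controls and 121, 116 and 123 with TMAO (fold 2.09). In none of these 6 genes did any TMAO library come near the controls. Aars shares 1326 of its 9282 exonic bases with Exosc6 on the same strand. The gene ID of Exosc6 had no row in the deposited table, so its counts could not be set beside those of Aars.

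The 6 cytosolic genes that at least doubled were all free enzymes: 6 of 12 free members and 0 of 7 in the multisynthetase complex. Over all genes tested 33.0% were called higher, 32.7% lower, and 15.7% higher by at least 2-fold. With only 7 members in the complex, 0 is not far from the last share. The free members had a median log2 fold change of 0.93 and 10 of 12 were called higher. Those of the complex had a median of 0.49, with 5 called higher (Rars, Lars, Iars, Eprs and Kars) and 1 lower (Qars). Rars, the arginine enzyme, was the highest of the complex: 104, 107 and 97.1 CPM in controls and 175.5, 187 and 185 with TMAO (log2 fold change 0.83, SE 0.08, edgeR adjusted p = 1.05e-05). The leucine, isoleucine and glutamate-proline enzymes Lars, Iars and Eprs lay close together at log2 fold changes of 0.54, 0.55 and 0.49, and all 3 were called. Kars went from 76.3, 78.8 and 70.4 CPM to 96.0, 105 and 98.6, the smallest rise among the called members (log2 fold change 0.41, SE 0.09, edgeR adjusted p = 0.00177). By chemistry of the active site, 6 of 8 class I and 8 of 10 class II cytosolic members were called higher, with medians of 0.55 and 0.70. Eprs, which joins an enzyme of each class in one protein, was left out of that count.

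Among the other free enzymes, Nars, for asparagine, was at 180.4, 175 and 179 CPM in controls and 280.1, 266 and 272 with TMAO (log2 fold change 0.61). Vars, for valine, and Hars, for histidine, had log2 fold changes of 0.50 and 0.46. All 3 were called and did not overlap between groups. Wars, the tryptophan enzyme, which is also known as an interferon-gamma target, was not called: 55.2, 51.5 and 49.7 CPM in controls and 53.8, 50.04 and 56.2 with TMAO (log2 fold change 0.03, SE 0.09, edgeR adjusted p = 0.756).

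The subunits of the phenylalanine enzyme differed. Farsa, which encodes the alpha subunit that binds the substrates, rose from 37.9, 37.96 and 35.4 CPM to 63.9, 58.8 and 69.3 (log2 fold change 0.79, SE 0.09, edgeR adjusted p = 3.98e-05). Farsb, which encodes the beta subunit of the same protein, was at 75.6, 81.0 and 81.1 CPM in controls and 70.2, 77.2 and 72.0 with TMAO and was not called (log2 fold change -0.12, SE 0.08, edgeR adjusted p = 0.248). The log2 ratio of Farsa to Farsb was -0.996, -1.09 and -1.19 in controls and -0.14, -0.39 and -0.05 with TMAO, a difference of 0.90 without overlap (exact two-sided permutation p = 0.1, the smallest that 3 against 3 libraries can give). That ratio was chosen after its values were seen.

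Qars, the glutamine enzyme (ENSMUSG00000032604), was the cytosolic member that fell. It had 132, 130.3 and 125 CPM in controls and 99.3, 79.1 and 92.7 with TMAO, with no overlap (log2 fold change -0.52, SE 0.10, edgeR adjusted p = 0.000932). Dars, for aspartate, was at 73.0, 75.4 and 79.9 CPM in controls and 73.9, 70.2 and 65.6 with TMAO, where TMAO library 1 lay among the controls (log2 fold change -0.12, SE 0.09, edgeR adjusted p = 0.241). With the trend on transcript length removed, Dars and Farsb were both called lower (log2 fold changes -0.31 and -0.34, edgeR adjusted p = 0.00661 and 0.000976).

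**Figure D2:**
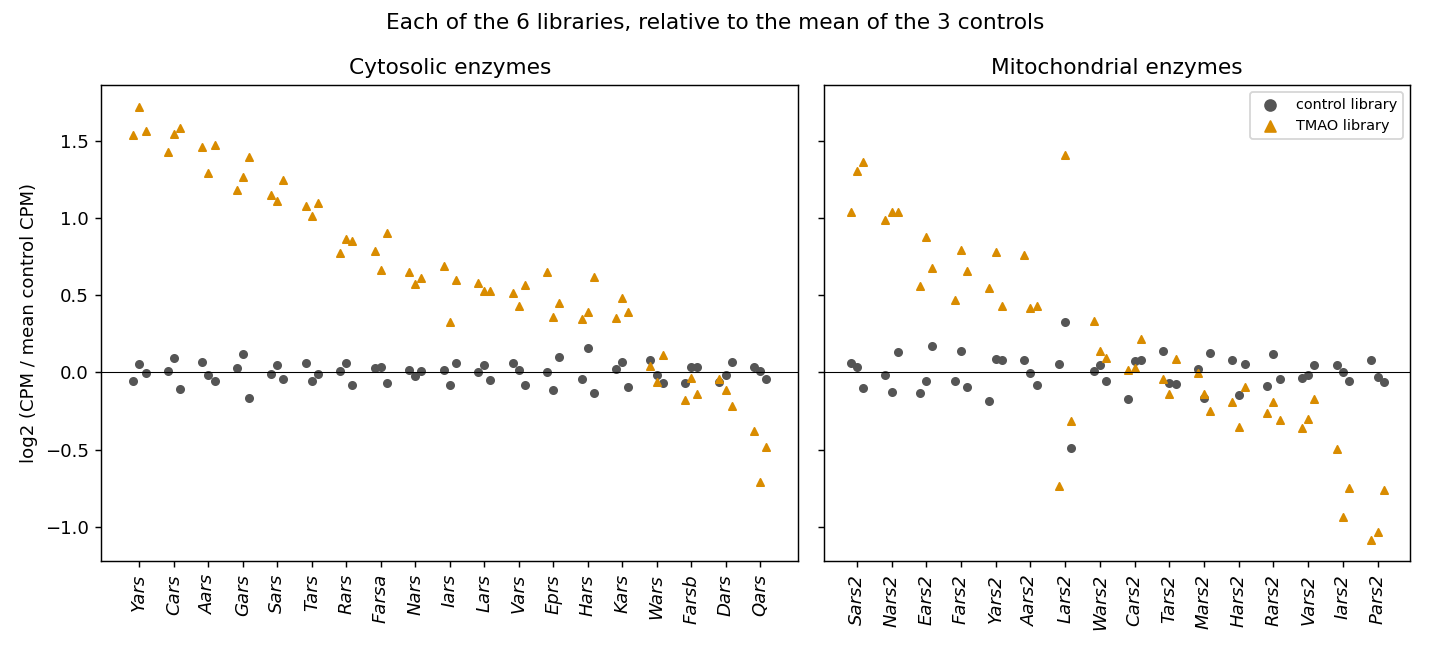
CPM of each synthetase gene in each of the 6 libraries, as log2 of the ratio to the mean of the 3 controls (circles control, triangles TMAO), ordered by fold change within the cytosolic and mitochondrial sets. In 15 cytosolic and 7 mitochondrial genes all TMAO libraries lie above all controls, and Lars2 stands out for the spread of its libraries.

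Mitochondrial members moved in both directions. Sars2, for serine (ENSMUSG00000070699), rose most: 6.97, 6.86 and 6.25 CPM in controls and 13.7, 16.5 and 17.2 with TMAO (log2 fold change 1.24, SE 0.13, edgeR adjusted p = 1.68e-05). Nars2, for asparagine, went from 4.76, 4.40 and 5.26 CPM to 9.54, 9.88 and 9.86 (log2 fold change 1.02, SE 0.13, edgeR adjusted p = 6.53e-05). Both about doubled, without overlap. Ears2, which loads glutamate, had 4.61, 4.88 and 5.69 CPM in controls and 7.44, 9.27 and 8.08 with TMAO (log2 fold change 0.71, SE 0.15, edgeR adjusted p = 0.00182). Fars2, the phenylalanine enzyme, had 13.2, 15.2 and 12.8 CPM in controls and 18.97, 23.7 and 21.7 with TMAO (log2 fold change 0.64). Yars2, for tyrosine, had 8.88, 10.7 and 10.7 CPM in controls and 14.8, 17.3 and 13.6 with TMAO (log2 fold change 0.59). Aars2, for alanine, had a log2 fold change of 0.55 (SE 0.14, edgeR adjusted p = 0.00576), and its call was lost with the trend on GC content removed (log2 fold change 0.29, edgeR adjusted p = 0.0986; range over its alternatives 0.00121 to 0.0986).

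Pars2, the proline enzyme (ENSMUSG00000043572), and Iars2, the isoleucine enzyme (ENSMUSG00000026618), were the mitochondrial members that fell. Pars2 had 6.79, 6.28 and 6.15 CPM in controls and 3.03, 3.14 and 3.78 with TMAO, a 1.93-fold lower level (log2 fold change -0.95, SE 0.15, edgeR adjusted p = 0.000318). Iars2 had 69.3, 67.2 and 64.5 CPM in controls and 47.6, 35.1 and 39.9 with TMAO (log2 fold change -0.71, SE 0.11, edgeR adjusted p = 0.00031). Neither gene overlapped between groups. Iars2 shares 2034 of its exonic bases with Rab3gap2 on the opposite strand, and since the strand setting of the counting is not given in the sources used here, reads of the shared part cannot be assigned with certainty. Vars2, for valine, had 8.80, 8.94 and 9.35 CPM in controls and 7.04, 7.34 and 8.03 with TMAO. It did not overlap but was not called (log2 fold change -0.27, SE 0.12, edgeR adjusted p = 0.0726, range over the alternatives 0.00365 to 0.824). Under 2 of 19 alternatives Vars2 was called lower. Rars2, for arginine, was at the edge of the threshold, with a log2 fold change of -0.25 (SE 0.10, edgeR adjusted p = 0.0503). It was called lower under 6 of its 19 alternatives, among them leaving out TMAO library 2 (edgeR adjusted p = 0.0447; range over the alternatives 0.000211 to 0.549). Wars2 also did not overlap, with TMAO higher, and was not called (log2 fold change 0.19, edgeR adjusted p = 0.201, range over the alternatives 0.00727 to 0.478). Under 3 of 19 alternatives Wars2 was called higher. The remaining members not called (Lars2 apart) were Cars2, Tars2, Mars2 and Hars2, with log2 fold changes from -0.21 to 0.09.

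Lars2, the mitochondrial leucine enzyme, was set apart by its spread. Its CPM was 216, 260.4 and 148 in controls and 125, 551 and 168 in TMAO libraries 1 to 3. TMAO library 2 lay above every other library and the remaining TMAO libraries overlapped the controls, so the log2 fold change of 0.43 had an SE of 0.45 (edgeR adjusted p = 0.419). Without TMAO library 2 the direction turned, to -0.51 (edgeR adjusted p = 0.0582), and without TMAO library 1 the value was 0.79 (edgeR adjusted p = 0.0652). Lars2 was called in 1 of 19 alternatives, that without a count filter (log2 fold change 0.41, edgeR adjusted p = 0.000938; range over the alternatives 0.000938 to 0.77). Lars2 transcripts share 50-base words with those of 5 other annotated genes, at most 0.169% of the Lars2 words for any of them. One of these, Gm15564, had 13, 28 and 28 counts in controls and 24, 93 and 15 in the TMAO libraries, also highest in TMAO library 2. What sets that library apart in Lars2 was not tested. Shared words were not particular to Lars2. Eprs shared them with 250 other genes, Tars2 with 108, Qars with 107, Dars with 90 and Yars with 34, while Gars and Nars shared none.

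Per transcript length, the cytosolic genes were expressed above the mitochondrial ones. CPM were divided by the kilobases (kb) of the longest annotated transcript of each gene. In controls the cytosolic median was 18.2 CPM per kb (range 7.80 to 65.0) and the mitochondrial one 3.59 (range 0.612 to 53.4). With TMAO the medians were 29.5 (range 13.1 to 99.3) and 4.797 (range 0.560 to 72.2). By its mean Nars was highest in both groups, at 65.0 ± 0.969 CPM per kb in controls and 99.3 ± 2.62 with TMAO (mean ± SD, n = 3). Mars2, for methionine, was lowest per kb, at 0.612 ± 0.061 and 0.560 ± 0.048. Its longest transcript has 11290 nt, and which form the cells express was not examined. Not divided by length, its mean of 6.91 CPM in controls was above Nars2 (4.8) and Ears2 (5.06), among others. With TMAO its mean of 6.32 CPM was above Pars2 (3.3). In controls Nars did not differ from Lars2 (53.4 ± 14.5) beyond their spread, and per kb Lars2 lay above Nars in control library 2 and TMAO library 2. With Lars2 set aside, every cytosolic gene lay above every mitochondrial gene in the TMAO libraries, where the lowest cytosolic gene was Vars at 13.1 and the highest mitochondrial one Rars2 at 10.2 CPM per kb. In controls the sets interleaved: Iars2 and Rars2, at 12.2 and 12.2 CPM per kb, lay above Farsa (11.1), Vars (9.25), Cars (9.14) and Yars (7.80). Of the 34 neighbours in the order of levels, 13 differed by more than the sum of their SDs in controls and 15 with TMAO, so most neighbours could not be ranked beyond their spread. Yars, the lowest cytosolic gene in controls, reached 23.8 ± 1.66 CPM per kb with TMAO. Qars, with rank 4 in the control order at 42.2 ± 1.16, was at 29.5 ± 3.36 with TMAO.

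**Figure D3:**
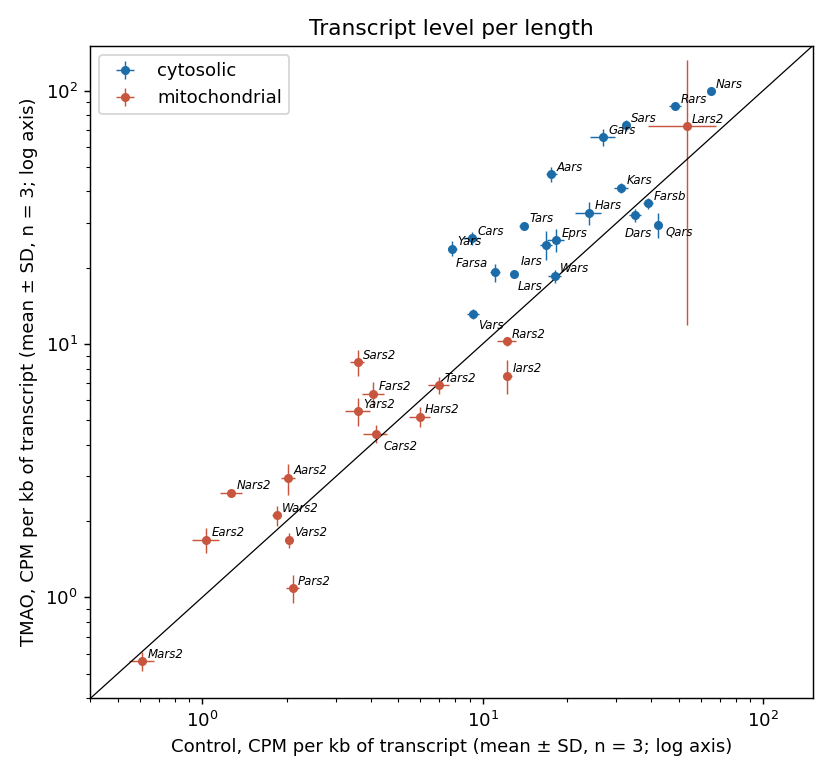
Level per transcript length of each synthetase gene in controls (x axis) and TMAO (y axis), in CPM per kb on log axes, as mean with SD over 3 libraries; the line marks equal levels. Most cytosolic genes lie above the line, and the Lars2 bars are the longest.

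For 13 amino acids both a cytosolic and a mitochondrial gene are members, and the log2 ratio of their CPM was taken within each library. The ratio itself is not per length, so only its change between groups is read. The ratio was higher with TMAO, without overlap, in 8 pairs (Aars, Cars, Hars, Iars, Rars, Tars, Vars and Yars over their mitochondrial counterparts), lower without overlap in 1 and overlapping in 4, with a median change of 0.78. Single genes did not overlap between the groups in 71.0% of all genes tested. No pair could reach a p under 0.05, because the smallest exact two-sided permutation p of 3 against 3 libraries is 0.1, and adjusted over the 13 pairs it was 0.144 for all 9 pairs without overlap. Cars to Cars2 changed most, from 1.17 ± 0.186 in controls to 2.60 ± 0.076 with TMAO (mean ± SD of the log2 ratio, n = 3, exact permutation p = 0.1). In the isoleucine pair the numerator rose and the denominator fell: Iars to Iars2 went from 0.126, 0.067 and 0.272 in controls to 1.34, 1.41 and 1.502 with TMAO. The asparagine pair went the other way, since Nars2 rose more than Nars: its log2 ratio was 5.23, 5.30 and 5.08 in controls and 4.87, 4.74 and 4.78 with TMAO. For serine both genes more than doubled and the ratio overlapped (4.10 ± 0.063 and 4.04 ± 0.159). Hars and Hars2 share 195 exonic bases on opposite strands, so reads of that stretch could count to either gene and their ratio is uncertain to that extent. The ratios for phenylalanine, tryptophan and leucine overlapped as well, the last with the spread of Lars2.

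**Figure D4:**
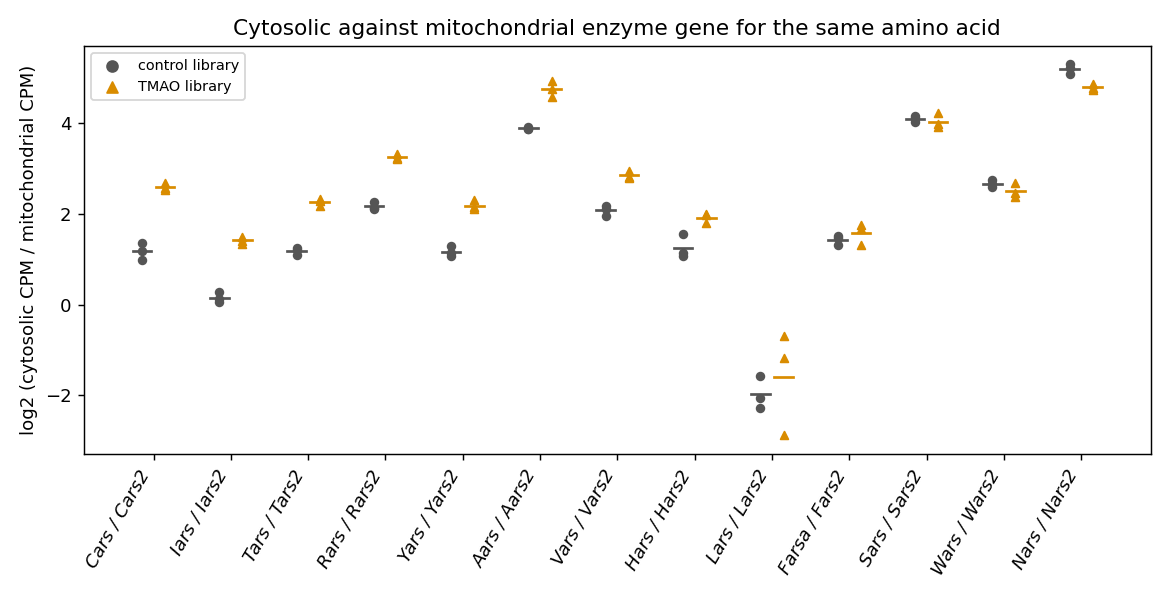
Log2 ratio of cytosolic to mitochondrial CPM for the 13 amino acids with a member of each kind, by library (circles control, triangles TMAO; lines are means of 3), ordered by the change between groups. Ratios are not corrected for transcript length, so heights are not compared between pairs; 8 pairs are higher with TMAO without overlap and Nars to Nars2 is lower.

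Partners of the enzymes were taken from lists of transfer RNA genes. The transcripts of all 3 scaffold proteins of the multisynthetase complex rose. Eef1e1, which encodes the scaffold AIMP3, had 17.4, 20.7 and 18.4 CPM in controls and 39.0, 46.5 and 43.2 with TMAO (log2 fold change 1.19, SE 0.11, edgeR adjusted p = 6.11e-06). Aimp2 had a log2 fold change of 0.87 and Aimp1 of 0.51. Of 5 cytosolic elongation factors, which carry charged transfer RNA to the ribosome or move it on, 4 were called higher and none lower, led by Eef1b2 and Eef1d (log2 fold changes 1.53 and 1.11), and Eef2 was not called. Another of the 4, Eef1a1 (log2 fold change 0.26), was called in 14 of 19 alternatives and was at -0.02 with the length trend removed (edgeR adjusted p = 0.831; range over the alternatives 0.00743 to 0.841). In mitochondria 2 of 4 elongation factors were called higher and 2 lower, the latter being Gfm1 and Gfm2 (log2 fold changes -0.21 and -0.43). Both lost their call with the length trend removed (-0.03 and -0.20, edgeR adjusted p = 0.7 and 0.0736), and Gfm1 was called in only 6 of 19 alternatives (edgeR adjusted p from 0.0344 to 0.747). There Tufm, which brings the charged transfer RNA, rose from 55.9, 59.8 and 51.1 to 76.4, 80.6 and 88.6 CPM, and Tsfm, its exchange factor, had a log2 fold change of 0.76. The genes of the amidotransferase that completes mitochondrial glutamine charging split: Qrsl1 rose (log2 fold change 0.80, edgeR adjusted p = 0.000909), Gatc fell from 28.2, 26.7 and 27.2 to 13.2, 15.1 and 14.97 CPM, and Gatb was not called (log2 fold change 0.15). With Mtfmt, which formylates the initiator, that list had 1 member called higher and 1 lower of 4.

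In the selenocysteine route 3 of 6 were called higher and none lower, with Sephs2, which makes the selenium donor, at 1.06 and Secisbp2, which binds the selenocysteine signal of messages, at 0.73. Among 10 genes for transfer RNA ends and splicing, 4 rose, 1 fell (Elac1, log2 fold change -0.68) and 5 were not called. Rtcb, the ligase of transfer RNA splicing, went from 103, 109 and 98.8 CPM to 169, 179 and 183 (log2 fold change 0.77), and Elac2, which trims the 3′ end, had a log2 fold change of 0.64. For each of these counts the background is the share of all genes called higher, 33.0%, and lower, 32.7%.

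Of 10 genes listed for the response to uncharged transfer RNA, 7 were called higher and none lower, at a median log2 fold change of 2.46. Over all genes tested 33.0% were called higher and 32.7% lower. Charging of transfer RNA was not measured, and what moved these genes was not tested. Atf4 had 190.5, 188 and 177 CPM in controls and 887, 841 and 908 with TMAO (log2 fold change 2.25, SE 0.08, edgeR adjusted p = 1.81e-08). Asns, the asparagine synthetase, which makes the amino acid itself and is a known ATF4 target, went from 10.5, 12.2 and 10.4 CPM to 106, 125 and 123 (log2 fold change 3.42, SE 0.11, edgeR adjusted p = 7.84e-09). Ppp1r15a, whose product restores translation, had a log2 fold change of 2.67 (SE 0.09, edgeR adjusted p = 7.84e-09), and no TMAO library of these 3 genes overlapped a control. The remaining 4 called genes were Chac1, Trib3, Ddit3 and Sesn2, named after their values were seen. The sensor kinase gene Eif2ak4 had 29.2, 26.5 and 31.5 CPM in controls and 30.4, 21.0 and 23.3 with TMAO and was not called (log2 fold change -0.22, edgeR adjusted p = 0.187), nor were its partner genes Gcn1 and Impact (log2 fold changes -0.04 and 0.05). Eif2ak4 was called lower without TMAO library 1 (-0.39, edgeR adjusted p = 0.00988; range over its alternatives 0.00988 to 0.477), Gcn1 was called higher with the length trend removed (0.62, edgeR adjusted p = 0.000125) and Impact with the GC trend removed (0.30, edgeR adjusted p = 0.0103). The largest log2 fold change of a synthetase, 1.61 in Yars, was below that of Atf4 and Asns.

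Transcript length moved with the fold changes of all genes. The median log2 fold change fell from 0.49 in the shortest to -0.53 in the longest of 5 length groups of equal size. The cytosolic members had a median length of 3066 nt and the mitochondrial ones of 3490 nt, against 3027 nt for all genes tested. In each length group that held members, the cytosolic median lay above that of all genes: 0.43 against 0.25 in the second group (6 cytosolic members), 0.70 against 0.04 in the third (6), 0.55 against -0.17 in the fourth (5) and 0.95 against -0.53 in the fifth (2). For the mitochondrial members the medians there were 0.49 (2 members), 0.32 (6), 0.31 (6) and -0.42 (2). These also lay above the medians of all genes, and in the second group above the cytosolic median. With the length trend removed, 15 cytosolic members were still called higher and 3 lower, and 8 mitochondrial members were called higher and 3 lower. The gap between the cytosolic and mitochondrial medians was then 0.22, against 0.41. Mars2, whose longest transcript has 11290 nt, changed direction with that correction, from -0.13 to 0.68 (edgeR adjusted p = 0.000547).

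**Figure D5:**
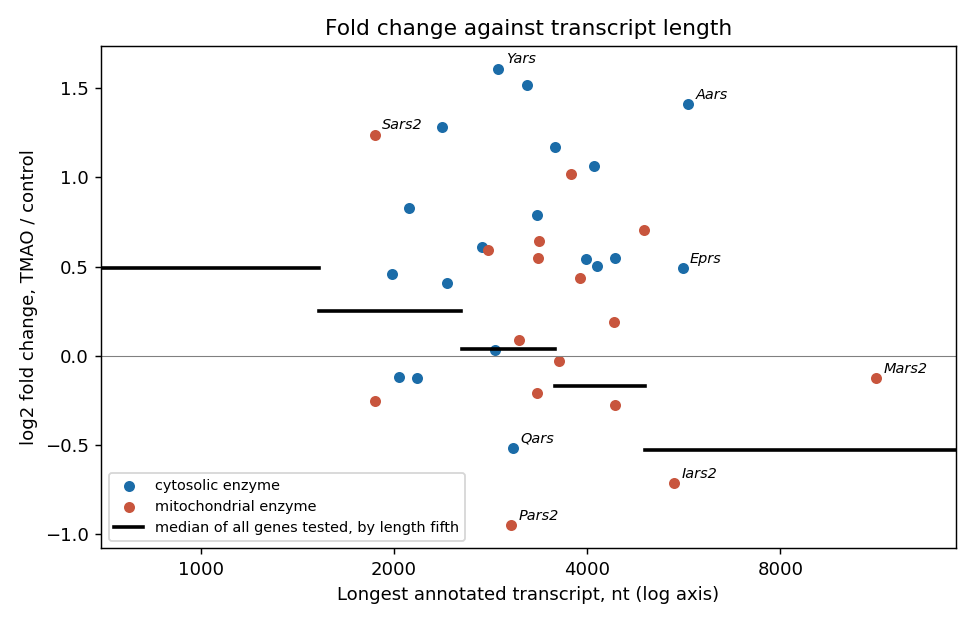
Log2 fold change of each synthetase gene against the length of its longest annotated transcript in nt (log axis); black lines are medians over all genes tested in 5 length groups. The black lines fall from 0.49 to -0.53, and most cytosolic genes lie above the line of their group.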

How the data were processed

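RNA-seq was done on 6 mouse libraries, with poly(A) selection and paired ends per the labels' protocols. Raw, unnormalized counts by Ensembl gene were deposited by the authors as a single table. The submitters' processing notes name GRCm39. For the aligner, counter, strand setting and annotation: not given in the sources used here. Each column carries the description of its sample and was matched by it. No pair of libraries of a group agreed within sampling noise (chi-square per degree of freedom 14.2 to 72.6). Symbols (25386 of 25751 IDs), transcript length and GC content came from GENCODE on the older build GRCm38, so only promoter coordinates, on that build, are printed.

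Genes were tested with edgeR 4.0.16 in R 4.3.3: filterByExpr (minimum count 10) kept 14626 genes, TMM scaling, quasi-likelihood F test without covariates, Benjamini-Hochberg threshold 0.05. The SE is the log2 fold change divided by the square root of F. Alternatives were DESeq2 1.42.0, limma-voom (limma 3.58.1), other scalings, filters and moderation, length and GC corrections, a replicate block and each library left out. On simulated counts the procedure called 58% of 1.5-fold changes, 84% of 2-fold changes and 0.0763% of unchanged genes. Small changes can thus be missed. Far fewer genes changed in that simulation than were called here.

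Members, lists and motifs were chosen with earlier results of these data known. Values in every library, or their range or mean, are given for the 5 highest and 3 lowest members of each set by log2 fold change and for Gars, Kars, Qars, Farsa and Farsb, and up to 2 genes per list are named by smallest p; further genes given so were chosen after their values were seen. A list of editing and peptidyl-tRNA release genes is not reported here.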

Additional observations from a re-analysis of the deposited data

How the results depend on the processing

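Under 19 alternatives, 645 of 665 member values kept their call, and 27 of 35 members did so under every alternative run. Sign changes between values not called either way are not counted there: 16 values in 5 members (Dars, Lars2, Mars2, Tars2 and Wars). The cytosolic counts called higher and the mitochondrial counts called higher kept within 1.5 times throughout. With the length trend removed, 3 cytosolic members were called lower, against 1, also with the replicate block (3), and the medians were 0.70 for cytosolic and 0.48 for mitochondrial members, with a gap of 0.22 (0.70, 0.37 and 0.34 with the replicate block). Mars2 then turned to 0.68 (0.67 with the block), Gcn1 to 0.62 (0.61), Sephs1 to 0.36 (0.36) and Eef1a1 to -0.021 (-0.023). With the GC trend removed, the medians were 0.68 and 0.28 (0.67 and 0.21 with the block, at a gap of 0.47), and Trnt1 turned to 0.25 (0.25 with the block). The corrections with the block were chosen after seeing the data. Leaving out each library in turn gave cytosolic medians of 0.52 to 0.63, mitochondrial medians of 0.074 to 0.17 and gaps of 0.40 to 0.56; the ends at 0.63, 0.074 and 0.56 came without TMAO library 2. The mitochondrial members called lower then numbered 2 to 3, and 8 to 10 pairs had a higher ratio without overlap. With Gars and Kars left out, 13 of 17 cytosolic members were called higher. The cause of these shifts was not tested. Deviations of same-numbered libraries from their group means correlated weakly over genes (r = 0.032, 0.133 and -0.067), and 3 of 6 libraries correlated best with their own number. With 3 libraries per group this cannot tell whether the numbers pair the samples, which the labels do not state. With the replicate block alone 9723 genes were called, against 9608, and the member counts were unchanged at 15, 1, 6 and 2. Low counts limit Mars2, Pars2, Ears2, Nars2, Aars2, Sars2 and Yars2. Their SEs are about 0.13 to 0.15, against about 0.08 for the abundant cytosolic genes.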
